A study of Homo sapiens with 8 samples.

Results

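Transcript levels of 10 Hippo pathway genes were followed in MCF10A cells across 4 hydrogels. The genes were chosen by name as components of the pathway: the kinases LATS1 and LATS2, the angiomotin-like proteins AMOTL1 and AMOTL2, the coactivators YAP1 and WWTR1 (TAZ), the DNA-binding factors TEAD1, TEAD3 and TEAD4, and the TEAD cofactor VGLL4. All 10 were found among the 25369 genes of the table. MCF10A is a spontaneously immortalized, non-malignant human mammary epithelial cell line. Cells at passages 8 to 15 were encapsulated for 7 days, and each gel gave 2 RNA-seq libraries, so that 8 libraries were compared. Soft IPN was soft alginate mixed with reconstituted basement membrane (rBM), and stiff IPN was the same mixture crosslinked with calcium. Soft col:rBM was soft type 1 collagen (col-1) with rBM, and stiff col was stiff col-1 without rBM. Within the IPN pair, stiffness and the added calcium therefore cannot be told apart. Within the collagen pair, neither can stiffness, col-1 density and the loss of rBM. The labels name no drug, transgene or gene deletion in any gel. The replicates were independent trials of a single cell line.

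In the Hippo pathway a kinase cascade ends in LATS1 and LATS2, which phosphorylate YAP and TAZ and keep them in the cytoplasm. Unphosphorylated YAP and TAZ enter the nucleus and act with TEAD factors on genes of growth and matrix remodelling, and stiff flat substrates are known to favour that nuclear state. Angiomotins hold YAP at junctions and on actin, and VGLL4 competes with YAP for TEAD. RNA-seq measures the transcripts of these genes, and neither the phosphorylation nor the location of their proteins.

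Since several Hippo components are themselves known YAP and TAZ targets, their promoters were searched for the core sequence that TEAD factors bind, GGAATG, on both strands. RefSeq windows on GRCh38.p14 that run from 250 bases before to 50 bases after a transcription start were listed for 8 of the 10 genes, in 15 windows. The core was present in 1 window each of YAP1, LATS2 and AMOTL2. It was also present in 14.0% of 35116 windows of the same length, so 3 of 15 is a description of letters and not a count of binding sites. The 60 bases around each match are shown, with the core in capitals. Binding of TEAD factors to these stretches was not tested. In AMOTL2 the core lies on the other strand and reads CATTCC.
YAP1 (chr11:102110258-102110317, + strand, 162 bases before the start): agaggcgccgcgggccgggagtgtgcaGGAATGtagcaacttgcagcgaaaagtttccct
LATS2 (chr13:21061545-21061604, - strand, 10 bases after the start): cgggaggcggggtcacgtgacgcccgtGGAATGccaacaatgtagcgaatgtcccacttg
AMOTL2 (chr3:134374484-134374543, - strand, 69 bases before the start): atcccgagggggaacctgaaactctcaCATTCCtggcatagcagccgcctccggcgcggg

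Each library held an estimated 13065257 to 18589590 reads on genes. Values are normalized counts, which are gene counts that the authors divided by a factor per library. Every one of the 10 genes had at least 100 normalized counts in all 8 libraries, so none was near the limit of detection. The basal epithelial markers KRT5, KRT14, KRT17, TP63, ITGA6, ITGB4 and CDH3 were present in all 8 libraries, with KRT5 at 7417 to 44022 and TP63 at 622 to 1865 normalized counts. Of the fibroblast markers, COL1A2 was at 0 in all 8 libraries, while DCN (526 to 1217) and COL1A1 (168 to 333) were present in each. Of the leukocyte markers, PTPRC was at 0 in all 8, while CD68 (324 to 5017) and CD14 (89 to 412) were present in each. The part of these markers in the values of the 10 genes was not tested. Stiff IPN replicate 2 had the fewest estimated counts on genes and stood apart from the rest in several ways described with the results it touches. All 10 genes passed the filter on low values. In bulk RNA, fewer cells of a type and less RNA per cell cannot be told apart.

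YAP1 was the most abundant of the 10. Per kilobase of exon, a scale on which genes can be compared, YAP1 (chr11:101981178-102104155 on hg19) had a median of 562 normalized counts over the 8 libraries, with a range of 417 to 650. AMOTL1 followed at 253 per kilobase, and TEAD1, VGLL4 and WWTR1 lay at 135, 116 and 107. TEAD4, LATS2, AMOTL2, LATS1 and TEAD3 lay closest together, at 87.5, 77.5, 71.5, 70.0 and 65.6 per kilobase. The ranges of these last 5 genes overlapped, and YAP1 stood above every other gene in all libraries. The ranges of TEAD1 (109 to 151), VGLL4 (96.7 to 156) and WWTR1 (78.7 to 127) overlapped each other and that of TEAD4 (58.8 to 118). The order of genes with close values also rests on the exon length used. Relatives outside the 10 were also measured. TEAD2 had 342 to 506 normalized counts, AMOT at most 6, and VGLL1 and VGLL2 were listed at 0 in all 8 libraries. The upstream components of the cascade were all present, with STK3 (MST2) at 158 to 265, STK4 (MST1) at 723 to 1120, SAV1 at 434 to 742, MOB1A at 683 to 1057, MOB1B at 466 to 776 and NF2 at 639 to 892 normalized counts.

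Of the kinases, LATS2 was the steadiest of all 10 genes. LATS2 (chr13:21547175-21635725) had 430 and 446 normalized counts in soft IPN, 389 and 390 in stiff IPN, 497 and 440 in soft col:rBM, and 443 and 428 in stiff col. Both stiff IPN libraries lay below the other 6. The highest library was 1.28 times the lowest, and on the log2 scale the SD over 8 libraries was 0.11, smaller than that of all but 2.83% of the genes tested. LATS1 (chr6:149979289-150039241) had 607 and 577 in soft IPN, 590 and 400 in stiff IPN, 608 and 599 in soft col:rBM, and 568 and 611 in stiff col. Its low value came from stiff IPN replicate 2 alone, and the other 7 libraries lay between 568 and 611. The ratio of LATS2 to LATS1 within a library, which does not depend on how the library was scaled, ran from 0.659 to 0.975, with the highest value in the same library.

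The coactivators moved together. YAP1 had 3221 and 3883 normalized counts in soft IPN, 3634 and 2631 in stiff IPN, 3464 and 4104 in soft col:rBM, and 2981 and 3845 in stiff col. WWTR1 (chr3:149235022-149454501), which encodes the YAP paralog TAZ, had 809 and 963 in soft IPN, 950 and 657 in stiff IPN, 844 and 1062 in soft col:rBM, and 838 and 1063 in stiff col. For both genes every gel overlapped the next in the order of means, and the lowest library was stiff IPN replicate 2. The ratio of WWTR1 to YAP1 within a library stayed between 0.244 and 0.281, the narrowest relative range of the 6 ratios compared. It averaged 0.267 in the stiff gels and 0.251 in the soft gels (two-sided exact permutation test, 4 libraries against 4, p = 0.0857, adjusted p = 0.771 over 18 ratio tests). Across the 8 libraries the log2 levels of YAP1 correlated with those of WWTR1 (r = 0.95) and AMOTL1 (r = 0.94), a description of 8 points that share gels, trials and scaling factors.

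The angiomotin-like genes differed in behaviour. AMOTL1 (chr11:94439597-94609913) had 2213 and 3211 normalized counts in soft IPN, 2555 and 1929 in stiff IPN, 2516 and 2992 in soft col:rBM, and 2178 and 2635 in stiff col. AMOTL2 (chr3:134074189-134094321) had 411 and 469 in soft IPN, 417 and 644 in stiff IPN, 458 and 520 in soft col:rBM, and 335 and 542 in stiff col. Stiff IPN replicate 2 was thus the lowest library for AMOTL1 and the highest for AMOTL2. The ratio of AMOTL2 to AMOTL1 was 0.334 in that library and between 0.146 and 0.206 in the other 7.

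Of TEAD1, TEAD3 and TEAD4, TEAD4 alone separated the collagen gels from the IPNs. TEAD4 (chr12:3068496-3149842) had 268 and 235 normalized counts in soft IPN, 215 and 231 in stiff IPN, 139 and 184 in soft col:rBM, and 134 and 176 in stiff col. The 4 collagen libraries lay below the 4 IPN libraries without overlap. TEAD1 (chr11:12695968-12966284) had 1167 and 1590 in soft IPN, 1511 and 1317 in stiff IPN, 1370 and 1588 in soft col:rBM, and 1170 and 1617 in stiff col, with overlap between all gels. TEAD3 (chr6:35441374-35464856) had 153 and 198 in soft IPN, 197 and 210 in stiff IPN, 226 and 166 in soft col:rBM, and 202 and 202 in stiff col, again with overlap between neighbours. Counting error alone gave an SD of up to 0.14 on the log2 scale for TEAD4. VGLL4 (chr3:11597543-11812824), the competitor of YAP for TEAD, had 809 and 770 in soft IPN, 696 and 857 in stiff IPN, 955 and 954 in soft col:rBM, and 809 and 1120 in stiff col. Its collagen libraries were at or above the IPN libraries in all but 1 gel pairing. VGLL4 shares 1597 exon bases (22.2%) with ATG7 on the opposite strand, and since the library kit does not mark strand, reads from those bases cannot be assigned. ATG7 had 371 to 674 normalized counts.

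**Figure D1:**
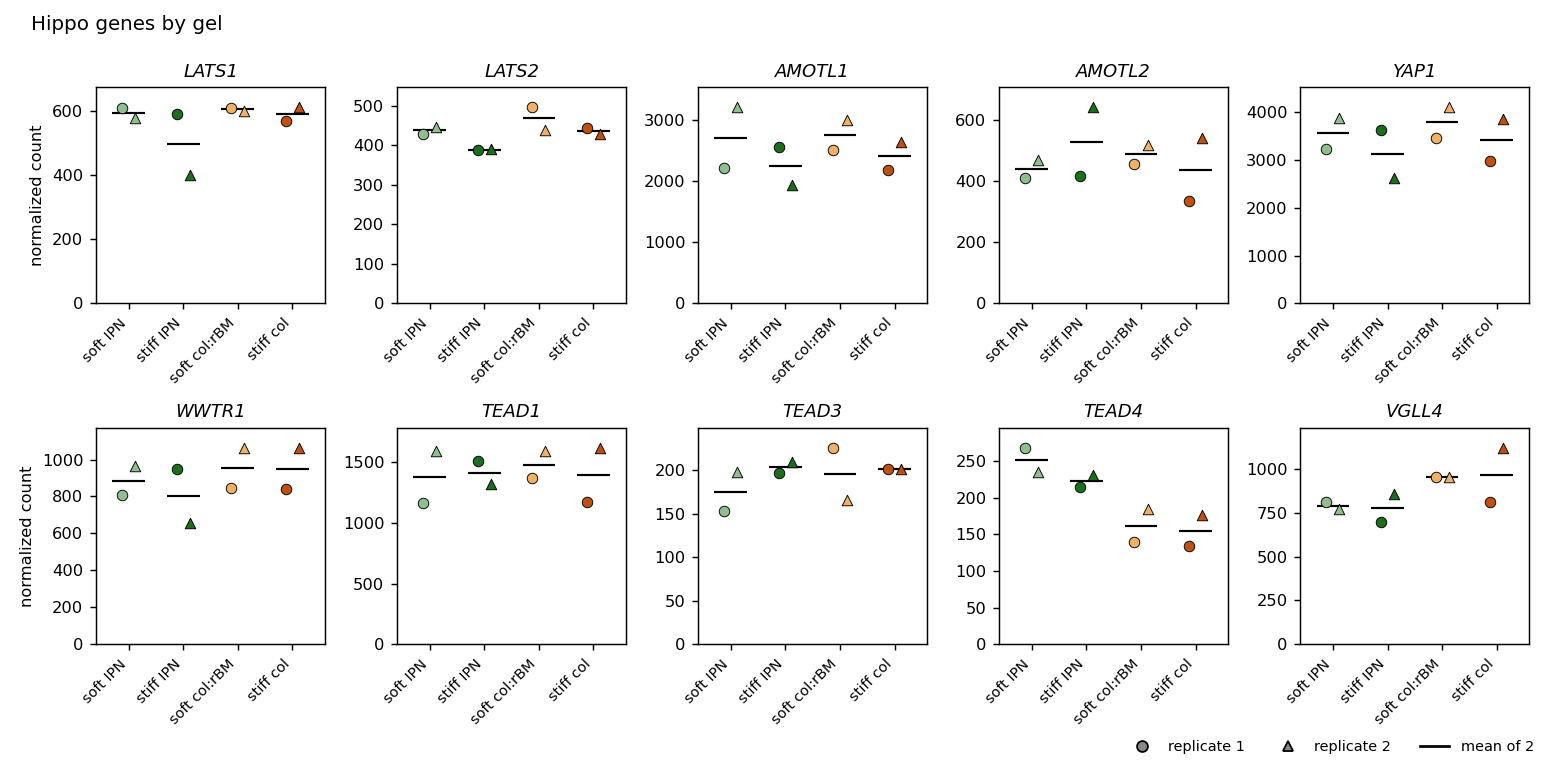
Normalized counts (y axis, from 0) of the 10 Hippo genes in each gel (x axis), with circles for replicate 1, triangles for replicate 2 and a line at the mean of 2. TEAD4 sits between 215 and 268 in the IPNs and between 134 and 184 in the collagen gels, while for YAP1, WWTR1, LATS1 and AMOTL1 stiff IPN replicate 2 is the lowest point.

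Whether stiffening the IPN with calcium changed the transcripts of the pathway was asked first, since the study compared stiffness without col-1. None of the 10 genes passed the test (limma, Benjamini-Hochberg adjusted p between 0.694 and 0.976), and none did when the trial was added as a block (0.378 to 0.932). Without the block 0.0% of all 13369 genes tested passed, and with it 3.82%. Across the 10 genes the median absolute log2 change was 0.18, against 0.29 over all genes. YAP1 stood at 3552 ± 468 in soft IPN and 3132.5 ± 709 in stiff IPN (SD, n = 2), a log2 change of -0.19 with a 95% interval of -0.76 to 0.37. WWTR1 changed by -0.16 (-0.75 to 0.43) on the same scale. The largest change was that of LATS1, at -0.28 (-0.81 to 0.24). The intervals of the 10 genes allowed folds from 0.552 to 1.93, so changes within that range were not excluded with 2 libraries per gel. With the block the intervals lay within -0.76 to 0.76 on the log2 scale. In simulated data, with changed genes drawn from all genes tested, larger changes also missed the threshold. LATS2 and TEAD4 were lower in both stiff IPN libraries than in both soft IPN libraries, as were 21.4% of all genes.

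These estimates were averages of trials that differed. In trial 1 the log2 change of YAP1 from soft to stiff IPN was 0.17 and in trial 2 it was -0.56. WWTR1 changed by 0.23 and -0.55, AMOTL1 by 0.21 and -0.73, and TEAD1 by 0.37 and -0.27. VGLL4 changed sign as well, at -0.22 and 0.15. LATS2 was the steadiest, at -0.14 and -0.19. When stiff IPN replicate 1 was left out and the trial was kept as a block, 4 of the 10 genes passed, namely YAP1 at -0.57 (adjusted p = 0.0252), WWTR1 at -0.58 (adjusted p = 0.0227), LATS1 at -0.57 (adjusted p = 0.0336) and AMOTL1 at -0.64 (adjusted p = 0.0225). In that fit 20.1% of all genes passed and stiff IPN was represented by replicate 2 alone. When replicate 2 was left out instead, none of the 10 passed.

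The collagen pair gave no call either. None of the 10 genes passed between stiff col and soft col:rBM, with or without the block, where 0.0% of all genes passed in either fit, and the libraries of the gels overlapped for every one of the 10, against 19.0% of genes without overlap. The median absolute log2 change of the 10 was 0.08, against 0.14 over all genes. YAP1 stood at 3784 ± 453 in soft col:rBM and 3413 ± 611 in stiff col (SD, n = 2), a log2 change of -0.16 (95% interval -0.72 to 0.41). WWTR1 changed by 0.00 (-0.59 to 0.58). The largest changes were those of AMOTL1 and AMOTL2, both at -0.20. The difference between the stiffness effects in collagen gels and in IPNs was tested directly, and no gene of the 10 passed without the block (adjusted p = 1.0 for each) or with it (0.643 to 0.98). The intervals of that difference allowed folds from 0.368 to 1.99, and with the block log2 differences from -1.04 to 0.88. Without the block 0.0% of all genes passed and with it 0.015%. Averaged over both gel systems, stiff against soft gels, a comparison added after the data were seen, gave no call among the 10 (adjusted p between 0.804 and 0.989, and between 0.43 and 0.952 with the block, where 0.598% of all genes passed). With the block and without stiff IPN replicate 1, YAP1 at -0.36 (adjusted p = 0.031) and AMOTL1 at -0.42 (adjusted p = 0.0259) passed as lower in stiff gels, beside 14.5% of all genes.

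**Figure D2:**
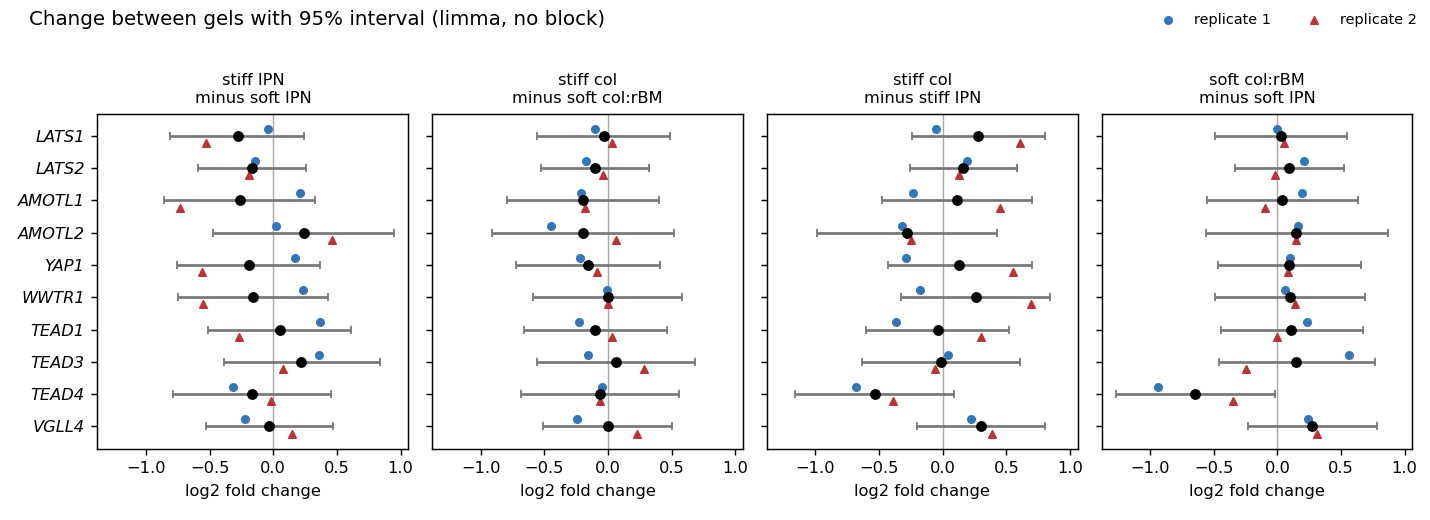
Log2 fold change (x axis) of the 10 genes (y axis) in 4 comparisons between gels, with black points and bars for the limma estimate and its 95% interval, blue circles for trial 1 and red triangles for trial 2. The intervals, from the fit without the block, cross 0 except that of TEAD4 in soft col:rBM against soft IPN. With the block, that of TEAD4 in stiff col against stiff IPN also lies below 0 (-1.03 to -0.03). In stiff against soft IPN the trials of YAP1, WWTR1, TEAD1, AMOTL1 and VGLL4 lie on opposite sides of 0.

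The gel systems were compared at each stiffness, and TEAD4 showed the largest change of the 10 in both. From soft IPN to soft col:rBM it went from 251.5 ± 23.3 to 161.5 ± 31.8 normalized counts (SD, n = 2), a log2 change of -0.65 (95% interval -1.27 to -0.02, adjusted p = 1.0 by limma, 0.886 with the block). From stiff IPN to stiff col it went from 223 ± 11.3 to 155 ± 29.7, a change of -0.53 (-1.16 to 0.09, adjusted p = 0.799, 0.237 with the block). With the block the 95% intervals for TEAD4 were -1.15 to -0.15 in the soft gels and -1.03 to -0.03 in the stiff gels. The change was negative in each trial, at -0.94 and -0.35 in the soft gels and -0.68 and -0.39 in the stiff gels. VGLL4 went the other way, at 0.27 (-0.23 to 0.78) in the soft gels and 0.30 (-0.20 to 0.80) in the stiff gels, and was positive in each trial as well. None of the 10 genes passed in either comparison, with or without the block. The background was 0.0% without the block in both, and with it 0.0224% in the soft gels and 2.47% in the stiff gels. Without overlap between libraries were TEAD4 (lower) and VGLL4 (higher) in the soft gels and TEAD4 (lower) and LATS2 (higher) in the stiff gels, where 20.7% and 30.9% of all genes did not overlap. With stiff IPN replicate 1 left out and the block kept, YAP1 at 0.51 (adjusted p = 0.04), WWTR1 at 0.68 (adjusted p = 0.0152) and LATS1 at 0.56 (adjusted p = 0.0382) passed as higher in stiff col than in stiff IPN, with 16.5% of all genes.

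Averaged over both stiffnesses, a comparison chosen after the values of TEAD4 were seen, TEAD4 had 158.2 normalized counts in the collagen gels and 237.2 in the IPNs, a fold of 0.664 (95% interval 0.49 to 0.901). It did not pass the limma test over all genes (adjusted p = 0.729, and 0.126 with the block), where 0.0% and 0.928% of all genes passed. All 4 collagen libraries were below all 4 IPN libraries, as for 1.92% of all genes, and the two-sided exact permutation test gave p = 0.0286, the smallest that 4 against 4 allows, or 0.286 adjusted over the 10 genes. The ratio of TEAD4 to TEAD1 averaged 0.11 in the collagen gels and 0.174 in the IPNs, with no overlap (exact permutation p = 0.0286, adjusted p = 0.514 over 18 ratio tests). Leaving out each library in turn kept the log2 change of TEAD4 between -0.69 and -0.49. VGLL4 had 959.5 and 783 normalized counts, a log2 change of 0.29 (-0.07 to 0.64). With the block its interval was 0.01 to 0.56, and it did not pass the limma test (adjusted p = 0.319). For VGLL4, stiff col replicate 1 (809) lay below stiff IPN replicate 2 (857). With the block and without stiff IPN replicate 1, WWTR1 passed as higher in the collagen gels, at 0.39 (adjusted p = 0.0269), beside 11.7% of all genes.

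**Figure D3:**
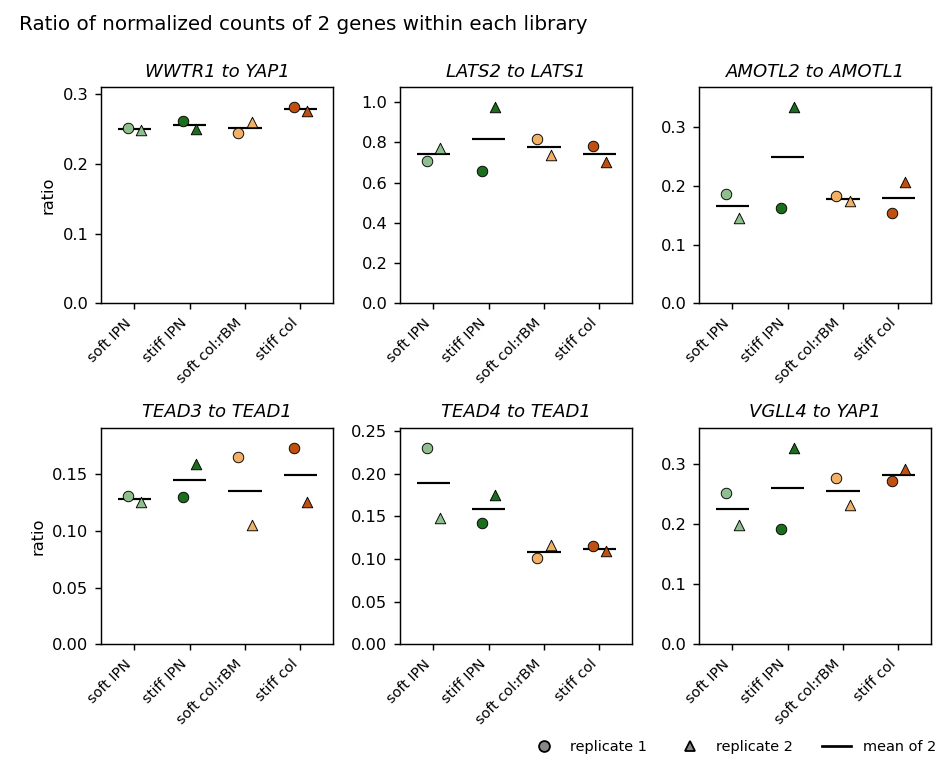
Ratios of the normalized counts of 6 gene pairs within each library (y axis, from 0) by gel (x axis), with circles for replicate 1, triangles for replicate 2 and a line at the mean of 2. WWTR1 to YAP1 stays between 0.244 and 0.281, TEAD4 to TEAD1 is 0.142 to 0.23 in the IPNs and 0.101 to 0.116 in the collagen gels, and AMOTL2 to AMOTL1 reaches 0.334 in stiff IPN replicate 2.

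Between the trials, in contrast, a difference passed the test. AMOTL2 was higher in replicate 2 in every gel, by 0.19 in soft IPN, 0.63 in stiff IPN, 0.18 in soft col:rBM and 0.69 in stiff col on the log2 scale. It was the single gene of the 10 to pass between replicates (limma with the gel as a term, log2 change 0.42, adjusted p = 0.046), where 27.1% of all genes passed. Over the alternatives its adjusted p ranged from 0.0459 to 0.208, and in 7 of the 8 fits that left out a library, all but that without stiff IPN replicate 1, it did not pass. YAP1, WWTR1, TEAD1 and AMOTL1 shared another pattern, being higher in replicate 2 in 3 gels and lower in stiff IPN. YAP1 differed by 0.27 in soft IPN, 0.24 in soft col:rBM and 0.37 in stiff col, and by -0.47 in stiff IPN. This sign pattern was found in 4 of the 10 genes and in 11.4% of all genes, a count made after the values were seen. With the stiff IPN pair out of the comparison, by leaving out its replicate 2, the 4 genes passed as higher in replicate 2: YAP1 by 0.29 (adjusted p = 0.0263), WWTR1 by 0.31 (0.0191), TEAD1 by 0.38 (0.011) and AMOTL1 by 0.35 (0.0173). Since 44.0% of all genes passed in that fit, 4 of 10 is near the background. The 4 were picked by their signs in the same 3 gels, so their direction there was fixed by the choice. AMOTL2, which lacks the pattern, was as high at 0.355 and did not pass (adjusted p = 0.0517). TEAD4 (0.201), VGLL4 (0.132), LATS1 (0.00354), TEAD3 (-0.0243) and LATS2 (-0.0575) did not pass either.

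Stiff IPN replicate 2 was the lowest of the 8 libraries for YAP1, WWTR1, LATS1 and AMOTL1, and for 24.1% of all genes tested. Transcript length moved with this library. In stiff IPN the 25% of genes with the longest annotated transcripts were lower in replicate 2 (median log2 difference -0.15) and the 25% with the shortest were higher (0.11). In the other 3 gels the long genes were higher (0.04 to 0.09) and the short genes lower (-0.11 to -0.06). LATS1, AMOTL1 and TEAD1 belong to the long genes and TEAD4 to the short. YAP1, WWTR1, LATS2 and AMOTL2 lie in the next longest 25%, and TEAD3 and VGLL4 in the next shortest. TEAD1, though long, was lowest in soft IPN replicate 1. The basal keratin KRT17 had 71907 normalized counts in this library and at most 19555 in any other. KRT17 was, however, higher in replicate 2 than in replicate 1 in every gel. Replicates 1 and 2 had 5552 and 18767 in soft IPN and 19555 and 71907 in stiff IPN. They had 2883 and 7944 in soft col:rBM and 3049 and 13097 in stiff col. The part of depth, transcript length or keratin level in the values of the 10 genes was not tested.

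**Figure D4:**
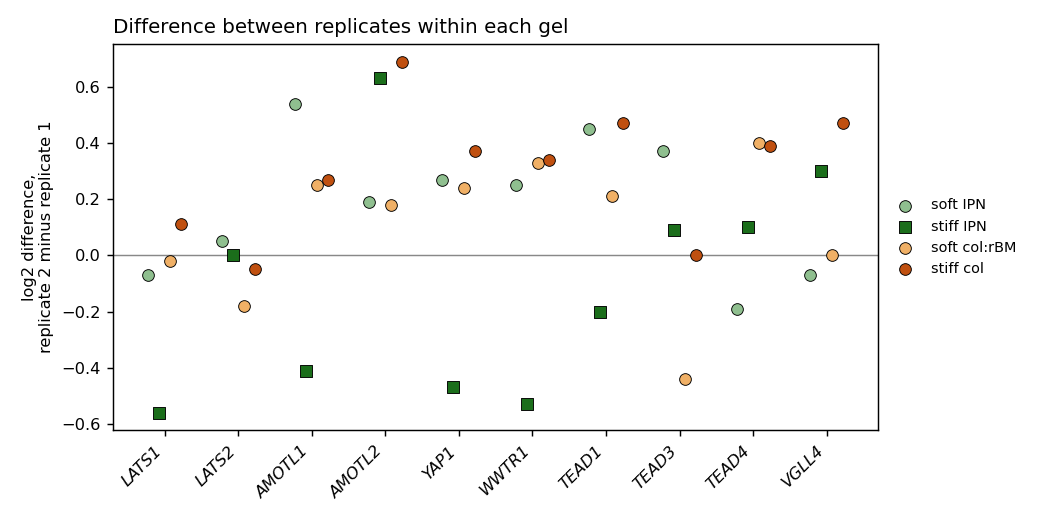
Log2 difference between replicate 2 and replicate 1 (y axis) within each gel, for the 10 genes (x axis), with squares for stiff IPN and circles for the other gels. YAP1, WWTR1, TEAD1 and AMOTL1 lie above 0 in 3 gels and below 0 in stiff IPN, and AMOTL2 lies above 0 in all 4.

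The genes whose profile over the 8 libraries was most like each of the 10 were looked up among 9975 genes with a mean of at least 100 normalized counts, as a description by Pearson r. They were RLF for YAP1 (0.976), RB1 for WWTR1 (0.988), PDCD6IP for TEAD1 (0.972) and KCNN4 for TEAD4 (0.979). LATS1 was closest to TCEA1 (0.986), LATS2 to DVL3 (0.976), AMOTL1 to ERC1 (0.982) and AMOTL2 to DGCR8 (0.978). TEAD3 and VGLL4 had no partner above 0.9, with KIAA1279 at 0.855 and C2orf47 at 0.893. With 8 libraries and so many genes, high values of r are reached by many pairs.

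Elsewhere in the pathway, genes passed the test when the trial was a block. Of 91 other Hippo genes, 83 were tested. None passed without the block in any comparison of gels. With the trial as a block, 5 passed between stiff and soft IPN (6.02%, against 3.82% of all genes), of which 4 rose. VGLL3, a cofactor of TEAD in the family of VGLL4, had 238 and 149 normalized counts in soft IPN and 540 and 691 in stiff IPN, a log2 rise of 1.69 (adjusted p = 0.0326 with the block, 0.41 without). RASSF6, a RASSF family scaffold, had 272 and 141 in soft IPN and 420 and 417 in stiff IPN (1.09, adjusted p = 0.0484 with the block). The junction protein E-cadherin (CDH1) had 2312 and 2724 in soft IPN and 3972 and 5620 in stiff IPN (0.91, adjusted p = 0.0376 with the block). YWHAH, which encodes a 14-3-3 protein of the family that retains phosphorylated YAP in the cytoplasm, rose by 0.68 (adjusted p = 0.0376 with the block). FAT4, an atypical cadherin, had 381 and 415 in soft IPN and 224 and 142 in stiff IPN, and fell by 1.15 on the log2 scale (adjusted p = 0.0425 with the block). For each of these 5 the soft and stiff IPN libraries were separated. So were 17 of the 83 as higher and 19 as lower in stiff IPN, and 21.4% of all genes as lower. The share of all genes that were higher is not given here, so the 17 have no background to be set against. The 5 were picked by a test on the same libraries, so the separation adds no support.

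Between stiff col and stiff IPN, 7 of the 83 passed with the block (8.43%, against 2.47% of all genes), and 6 of them were lower in stiff col. CRB3, a polarity protein of the Crumbs complex, had 160 and 281 normalized counts in stiff IPN and 47 and 55 in stiff col, a fall of 2.04 on the log2 scale (adjusted p = 0.0202 with the block, 0.232 without). CDH1 had 1283 and 1823 in stiff col and fell by 1.63 relative to stiff IPN (adjusted p = 0.00781 with the block). VGLL3 had 185 and 245 in stiff col and fell by 1.52 (adjusted p = 0.0442), and WWC1 (KIBRA), an upstream activator of the LATS kinases, had 531 and 606 in stiff IPN and 214 and 345 in stiff col and fell by 1.06 (adjusted p = 0.0279), both with the block. RUNX2, a transcription factor that can partner TAZ, was higher by 1.36 (adjusted p = 0.0297 with the block), although its libraries overlapped at 133 and 33 in stiff IPN and 340 and 87 in stiff col. RUNX2 was lower in replicate 2 in every gel.

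No other Hippo gene passed, with or without the block over all 8 libraries, between stiff col and soft col:rBM or between soft col:rBM and soft IPN. An alternative added after the data were seen fitted only the libraries of stiff col and soft col:rBM, with the block. There 6 other Hippo genes, 5 targets and 970 genes in all passed, and none of the 10. The share of all genes that passed in that fit is not given here, so the counts are not read as a result about either list. CDH1, CRB3 and SCRIB had the lowest p between stiff col and soft col:rBM, with log2 changes of -0.57, -0.78 and -0.29, and RASSF6, MARK1 and SIKE1 between soft col:rBM and soft IPN, with 0.87, 0.50 and 0.38. The difference of stiffness effects between the gel systems did not pass for any of the 83 with the block (lowest adjusted p = 0.147), so a rise of VGLL3 or CDH1 that is particular to IPNs was not shown. Averaged over both stiffnesses, CDH1 was lower in the collagen gels (log2 difference -0.89, adjusted p = 0.0224 in the blocked fit), with overlapping libraries. Leaving out single libraries changed these calls. CDH1 passed in 7 of 8 such fits with the block between stiff col and stiff IPN and in 6 of 8 between stiff and soft IPN, VGLL3 in 3 of 8 in the former and 6 of 8 in the latter, CRB3, WWC1 and RUNX2 in 4 of 8 in the former, FAT4 in 4 of 8 and RASSF6 and YWHAH in 2 of 8. Without soft IPN replicate 2, no gene of the table passed between stiff and soft IPN, and RASSF6 changed by 0.69 and FAT4 by -0.75 there, with the block.

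**Figure D5:**
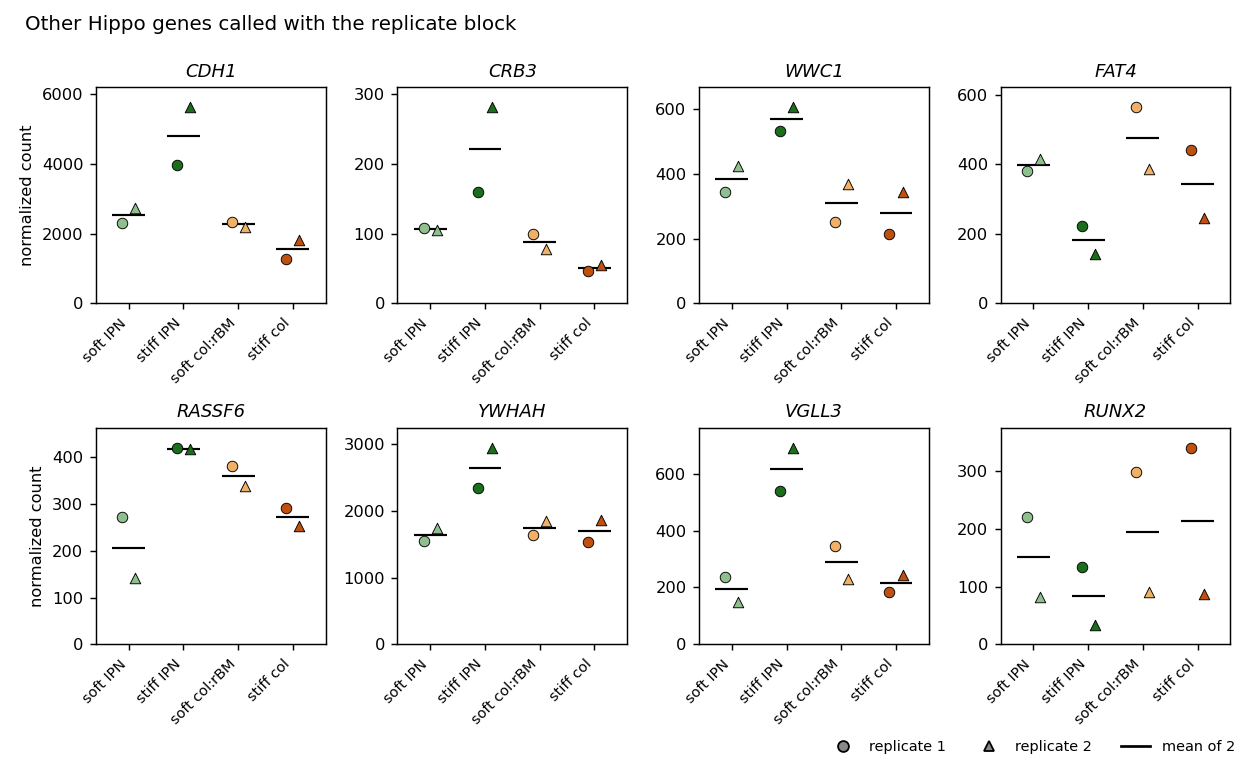
Normalized counts (y axis, from 0) by gel (x axis) of 8 other Hippo genes that passed the test with the trial as a block in stiff against soft IPN or in stiff col against stiff IPN. Circles are replicate 1, triangles replicate 2 and lines the mean of 2. CDH1, CRB3, WWC1, RASSF6, YWHAH and VGLL3 are highest in stiff IPN, where CDH1 reaches 3972 and 5620.

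Of 22 genes known as YAP and TAZ targets, a list that includes LATS2 and AMOTL2, 21 were tested. None passed without the block. With it, NT5E (CD73) passed between stiff and soft IPN (4.76%, against 3.82% of all genes), with 18632 and 12707 normalized counts in soft IPN, 11219 and 2947 in stiff IPN and a log2 difference of -1.42 (adjusted p = 0.0406). NT5E was also lower in replicate 2 in every gel, and it passed in 4 of 8 fits without a library, and not without soft IPN replicate 2, where it changed by -0.88. The median log2 change of the 21 was -0.09 between stiff and soft IPN, against -0.01 over all genes. It was -0.10 between stiff col and soft col:rBM, against 0.00. In the other comparisons of gels no target passed in the fits to all 8 libraries. TGFB2, IGFBP3 and F3 had the lowest p between stiff col and soft col:rBM, with log2 changes of 1.14, -1.59 and -0.52. Between replicates 8 of the 21 passed (38.1%), and 23 of the 83 other Hippo genes (27.7%), against 27.1% of all genes.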

How the data were processed

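RNA-seq was analysed in 8 libraries, 2 for each of 4 gels, grouped by the labels. Per the labels and the study's methods, total RNA was made into unstranded TruSeq v2 libraries. The authors trimmed reads (Trim Galore 0.3.3), aligned them to hg19, dropped reads that were unmapped, of low quality or mapped to several places, and counted the rest per gene with HTSeq. The submitters' processing notes name TopHat2 2.0.13, SAMtools 1.1, DESeq2 and R 3.2.0, while the methods name Bowtie2 as the aligner. The annotation and the strand setting are not given in the sources used here. The deposited values are a signal: the authors divided gene counts by a factor per library and rounded to whole numbers, so a small count carries rounding error and a count model was not used. The factors (0.8 to 1.24) and the counts on genes before normalization were estimated from the spacing of low values. All value columns were used, and 28 of 25369 rows, with symbols turned into dates, were kept without a name.

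Genes with at least 10 normalized counts in at least 2 libraries (13369) were fitted as log2(normalized count + 1), each gel with its own mean, in limma 3.58.1 (R 4.3.3, statmod 1.5.0), using robust moderation and a trend of variance on level. P values were adjusted over every gene in the fit by the Benjamini-Hochberg method at a threshold of 0.05, and fold changes are on the log2(value + 1) scale, which understates changes of low genes. Replicates between gels were fitted with the gel as a term. Intervals for comparisons of gels are from the fit without the block unless stated. The scripts were tested on simulated data, with 200 changed genes between stiff and soft IPN and a shift between replicates. Without the block, 0.8% of log2 changes of 1 and 28.6% of log2 changes of 2 passed. With the block, 27.8% and 64.2% passed, so the absence of a call says little about such changes. Pairing of libraries by replicate number was checked: the methods describe 2 independent trials, and differences between replicates correlated in each of 6 pairs of gels (r = 0.28 to 0.82 over 13369 genes), so a blocked fit, with the trial as a term, is given where it changes a call. Paralog ratios were compared by two-sided exact permutation tests; with 2 against 2 the smallest p is 0.333.

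Positions came from GENCODE 44 lifted to hg19, and exon length is the union of annotated exons. Transcript lengths were found for 91.1% of genes tested. Promoters came from RefSeq on GRCh38.p14, with no conversion between builds. Python 3.11.15, numpy 2.4.6, pandas 2.3.3, scipy 1.17.1 and matplotlib 3.10.9 were used. The 10 genes and all lists were chosen with earlier results of these data known. Named were the 10 genes, up to 5 genes of each other list that passed with or without the block in a comparison of gels (otherwise the 3 with the lowest p), and the most similar gene to each of the 10. Other genes were named after their values were seen. Alternatives were 2 pseudocounts (0.5 and 5), 2 filters, 2 rescalings, no trend, fits on 2 gels alone, the block, and leaving out each library. Of the marker lists, 5 of 7 luminal, 2 of 7 fibroblast and 2 of 4 endothelial markers passed the filter, with summed levels of 7362 to 13445 (luminal), 775 to 1468 (fibroblast) and 39 to 270 (endothelial). The basal epithelial and leukocyte lists are given by single genes in the results, and some of their markers are not reported here.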

Additional observations from a re-analysis of the deposited data

How the results depend on the processing

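No gene of the 10 passed in a comparison of gels under any pseudocount, filter, rescaling or moderation, with the replicate block, or, without the block, when a library was left out. The block changed other counts. Between stiff and soft IPN it gave 5 other Hippo genes, 1 target and 511 genes in all, against 0 without it. Between stiff col and stiff IPN it gave 7 other Hippo genes and 330 genes. It gave 3 genes between soft col:rBM and soft IPN, 2 for the difference of stiffness effects, 124 between collagen gels and IPNs (1 other Hippo gene) and 80 between stiff and soft gels, the last 2 comparisons added after seeing the data. No other call changed with the pairing. Combined with the block, the fit on 2 gels alone gave 970 genes between stiff col and soft col:rBM (6 other Hippo genes and 5 targets), and that without trend gave 35 between stiff and soft IPN. Without the block, the 2 IPN gels alone gave 1 gene, a pseudocount of 5 gave 4 between stiff col and stiff IPN, and leaving out a library gave 0 to 5 there and 0 to 3 between collagen gels and IPNs. Between replicates the number of the 10 that passed was 0 without a filter or without trend, and 0 to 5 over left-out libraries, where 1208 to 5845 genes passed in all. Leaving out either library of a gel removes that gel from the comparison of replicates.

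With 2 libraries per gel, the sign of small changes rested on single libraries. Leaving out each in turn, the log2 change between stiff and soft IPN ranged from -0.43 to 0.04 for YAP1, -0.43 to 0.11 for WWTR1, -0.17 to 0.27 for TEAD1, -0.56 to 0.00 for LATS1, -0.53 to 0.00 for AMOTL1, -0.07 to 0.55 for AMOTL2 and -0.18 to 0.12 for VGLL4. Between stiff col and soft col:rBM it was -0.34 to 0.03 for YAP1, -0.18 to 0.17 for WWTR1, -0.33 to 0.13 for TEAD1, -0.16 to 0.28 for TEAD3, -0.26 to 0.14 for TEAD4, -0.09 to 0.02 for LATS1, -0.54 to 0.15 for AMOTL2 and -0.24 to 0.23 for VGLL4. Between stiff col and stiff IPN it was -0.10 to 0.36 for YAP1, -0.01 to 0.52 for WWTR1, -0.27 to 0.20 for TEAD1, -0.06 to 0.04 for TEAD3, 0.00 to 0.56 for LATS1, -0.09 to 0.31 for AMOTL1 and -0.63 to 0.06 for AMOTL2. Between soft col:rBM and soft IPN it was -0.04 to 0.23 for YAP1, -0.06 to 0.27 for WWTR1, -0.11 to 0.34 for TEAD1, -0.07 to 0.37 for TEAD3, -0.01 to 0.06 for LATS1 and -0.23 to 0.31 for AMOTL1. Between replicates it was -0.12 to 0.15 for TEAD3, -0.22 to 0.00 for LATS1 and -0.07 to 0.00 for LATS2. Between collagen gels and IPNs the ratio of AMOTL2 to AMOTL1 ranged from -0.28 to 0.12, LATS2 to LATS1 from -0.10 to 0.09 and TEAD3 to TEAD1 from -0.07 to 0.17. Between stiff and soft gels LATS2 to LATS1 ranged from -0.09 to 0.10 and TEAD4 to TEAD1 from -0.25 to 0.14. In the 4 pairs of gels compared, the other changes of the 10 kept their direction, TEAD4 between gel systems included.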
